A study of Homo sapiens with 2 samples.

Results

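HK2, PGAM1, TPI1 and LDHA encode 4 enzymes of glycolysis, and they were taken as the rows of the deposited table whose platform gene symbol was one of these names. Each of the 4 genes had 1 probe set, out of 14812 genes with a named probe set. The genes were chosen with their values in these arrays in view, so what follows describes those values and tests nothing. The values come from BE(2)C, an established human neuroblastoma cell line with amplified MYCN, grown in DMEM with fetal calf serum. Of 2 cultures, one was transfected with an siRNA against MYCN (labelled MYCN2) and the other with non-targeting control siRNA from another supplier, both with Lipofectamine 2000. RNA was taken 36 hours after transfection, and 100 ng of it was labelled. The arrays were Affymetrix Human Gene 2.0 ST, which read each transcript with a set of short probes. There was 1 array per group, so no value has a replicate or a p-value, and precision is limited by the array number. The control sample is titled a reanalysis, without further explanation. MYCN itself was not analysed here.

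Glycolysis splits glucose into pyruvate. Hexokinases trap glucose in the cell as glucose 6-phosphate, triose-phosphate isomerase (TPI1) lets both triose products of the split sugar continue down the pathway, phosphoglycerate mutase (PGAM1) moves the phosphate of 3-phosphoglycerate before enolase acts, and lactate dehydrogenase A (LDHA) reduces pyruvate to lactate and returns NAD+. Many tumours use the pathway heavily with oxygen present. MYC family proteins bind the E-box sequence CACGTG, and HK2 and LDHA are known in other systems as genes that MYC proteins and hypoxia-inducible factor can switch on.

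The members did not move as a block. In the MYCN siRNA array HK2 was 3.58-fold lower, PGAM1 1.68-fold lower and TPI1 1.24-fold lower than in the control array, while LDHA was 1.26-fold higher. The probe set that the platform names PGAM1 may read another locus, as described below. Among 10592 measured genes 123, or 1.16%, were at least 2-fold lower, and 613, or 5.79%, were at least 1.5-fold lower; HK2 was past the first threshold and HK2 and PGAM1 past the second. Genes were called measured if 1 or both of their values reached the array median over all probe sets. All 4 members lay above that median in both arrays. This filter is loose: 71.5% of the genes with a named probe set passed it. Passing does not show that a transcript was detected above background. Since the members were picked from this contrast, nothing is read from the shares of lower genes. In bulk RNA of this kind, fewer cells with a transcript and less of it per cell cannot be told apart.

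CACGTG stood before a listed start of HK2 and of LDHA, and these sequences are shown because the motif is the binding sequence of the family that the siRNA targets. The windows below are the 250 bases before a transcription start listed by RefSeq, on GRCh38.p14, read 5′ to 3′ on the plus strand; capitals mark CACGTG. The HK2 window, at chr2:74834920-74835169, lies before the second listed HK2 start, downstream of the first start and so inside the gene as read from it. The LDHA window, at chr11:18394313-18394562, lies before the first listed LDHA start.
HK2, second start: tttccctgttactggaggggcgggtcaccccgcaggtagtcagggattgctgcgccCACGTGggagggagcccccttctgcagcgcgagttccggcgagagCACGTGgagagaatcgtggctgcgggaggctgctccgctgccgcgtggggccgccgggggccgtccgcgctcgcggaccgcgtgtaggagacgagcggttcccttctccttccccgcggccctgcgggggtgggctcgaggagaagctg
LDHA, first start: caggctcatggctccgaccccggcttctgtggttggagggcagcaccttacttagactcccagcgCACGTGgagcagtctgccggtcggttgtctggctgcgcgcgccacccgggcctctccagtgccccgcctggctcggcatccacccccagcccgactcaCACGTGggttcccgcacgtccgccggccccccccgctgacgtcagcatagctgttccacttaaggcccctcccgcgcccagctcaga
The 2 matches begin 194 and 149 bases before the start in HK2, and 185 and 87 bases before it in LDHA. CACGTG reads the same on both strands. Among all 35116 windows of this length in the table, 6.34% held it at least once and 0.535% at least 2 times. Counted per gene, over all listed starts, 855 of 7679 measured protein-coding genes with a window held it. The other HK2 window (chr2:74833877-74834126), the other LDHA window (chr11:18396101-18396350), both TPI1 windows and the listed PGAM1 window held none. Of the 11 measured genes of the core pathway described below, GAPDH was the only further one with a match, 81 bases before its start. ACGTG, the core of many hypoxia response elements, lies inside CACGTG and was searched on both strands, so that each E-box counts as 2 matches. Outside the E-boxes the first HK2 window held 2 matches, the first LDHA window 1 and the second TPI1 window 1, and 18.5% of all windows held at least 1, E-boxes included. A match describes the letters only, and binding was not measured. Of the 2 members with an E-box, HK2 was lower and LDHA higher after MYCN siRNA. The LDHA difference was only 1.04 times the probe-set SD described below. Whether the motif has a part in either difference was not tested.

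**Figure D1:**
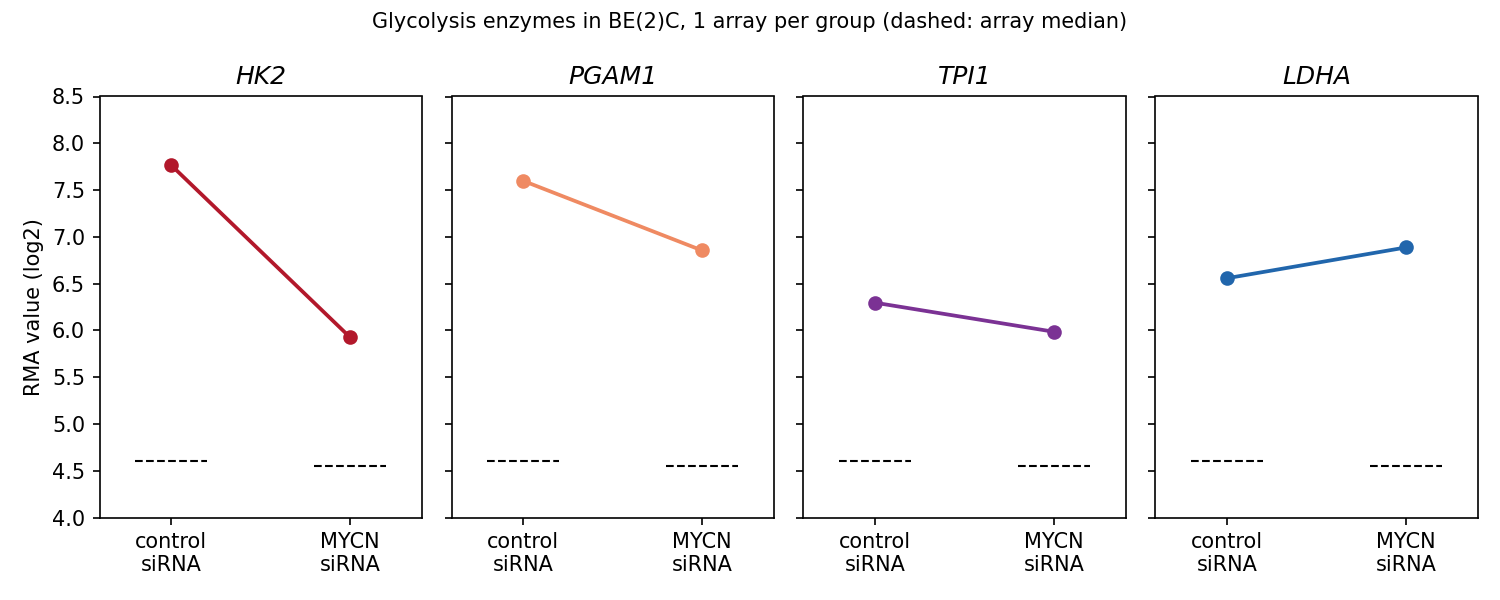
RMA values (log2, vertical axis) of the 4 members in the control siRNA array and the MYCN siRNA array, 1 point per array, with dashed marks at each array's median over all probe sets. HK2 goes from 7.77 to 5.93 and LDHA from 6.56 to 6.89; levels of different genes are read by different probes and are not to be set against each other.

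HK2, a hexokinase isoform that can bind the outer mitochondrial membrane and is abundant in many tumours, read 7.77 with control siRNA and 5.93 with MYCN siRNA on the log2 RMA scale. The MYCN siRNA array was the low one, by a log2 difference of −1.84. HK2 lay 3.16 above the array median in the control and 1.37 above it after MYCN siRNA. That median is not a limit of detection. How far 5.93 stands above background was not tested, and the size of the fold may depend on it. In the order of differences over measured genes HK2 was number 2 from the bottom. Among the 2006 measured genes whose mean level lay within 0.5 of that of HK2, whose median difference was 0.07, 2 were as low or lower, HK2 included. The only spread these data hold is that between probe sets of 1 gene: the differences of 374 pairs gave an SD of 0.32 per probe set, and the HK2 difference was 5.80 times as large. A pair shares its RNA and its arrays, so this SD leaves out the spread between cultures and between hybridisations.

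HK1, the hexokinase present in most tissues, read 9.00 after MYCN siRNA and 8.93 in the control, a difference of 0.07. The difference of HK1 exceeded that of HK2 by 1.91 on the log2 scale. HK3 and HKDC1, the other hexokinase genes with a named probe set, lay under the array median in both arrays, HK3 at 4.05 and 3.74 and HKDC1 at 4.44 and 4.30 (control first). Their differences were −0.31 for HK3 and −0.14 for HKDC1.

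TPI1 read 6.30 with control siRNA and 5.99 with MYCN siRNA, a log2 difference of −0.31. That is 0.979 of the probe-set SD, and 1964 of the 10592 measured genes, or 18.5%, were as low or lower. The other measured enzyme of the upper pathway had a similar value. GPI, glucose-6-phosphate isomerase and the enzyme that follows hexokinase, read 11.4 and 11.2, a difference of −0.28. The phosphofructokinase genes PFKL, PFKM and PFKP and the aldolase genes ALDOA and ALDOC had no named row and were not analysed here, so the committed step of the pathway is not covered.

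PGAM1 read 7.60 with control siRNA and 6.85 with MYCN siRNA, a log2 difference of −0.74, which is 2.35 times the probe-set SD. Of all measured genes 315, or 2.97%, were as low or lower. The identity of this probe set is in doubt. Probe set numbers on this platform follow gene order along the chromosomes: of 15650 named probe sets whose named neighbours by number share a chromosome, 15610 were for a gene on that chromosome and 40, or 0.256%, were not. The probe set named PGAM1 (16769440) is among the 40. It stands between GLT8D2 and CKAP4, both on chromosome 12, whereas RefSeq places PGAM1 on chromosome 10. RefSeq lists 13 pseudogenes with PGAM1 names, and which transcript these probes read was not tested. The probe sets of HK2 (16881838, between HTRA2 and MRPL19 on chromosome 2), TPI1 (16747529, between USP5 and LRRC23 on chromosome 12) and LDHA (16722603, between SAA1 and LDHC on chromosome 11) stood beside genes of their own chromosome. So did all other probe sets of the pathway lists whose named neighbours share a chromosome.

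PGAM2, the muscle form of the mutase, went the other way. It read 6.36 with control siRNA and 7.46 with MYCN siRNA, 2.14-fold higher (log2 difference 1.10), where 2.21% of measured genes were at least 2-fold higher. With 16 added to the linear values its difference was 0.97, just under 2-fold. Its difference exceeded that of the PGAM1 probe set by 1.84. PGAM4, an intronless copy of PGAM1 on the X chromosome that is nearly identical to it, read 8.14 and 8.13, a difference of −0.02 whose sign turned with median centring (0.03). The close sequence of PGAM1 and PGAM4 makes their separate values uncertain.

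LDHA was the member that was higher after MYCN siRNA, at 6.56 with control siRNA and 6.89 with MYCN siRNA. The log2 difference of 0.33 is 1.04 times the probe-set SD, and 2193 measured genes, 20.7%, were as high or higher. LDHB, whose product makes up the heart-type enzyme, read 7.32 and 7.09, a difference of −0.23. LDHA and LDHB therefore differed in sign, and LDHB minus LDHA came to −0.55. LDHD, the mitochondrial D-lactate dehydrogenase, was at −0.22. The testis gene LDHC read 2.90 and 2.42, LDHAL6A 3.84 and 4.40, and LDHAL6B 4.49 and 4.20 (control first), all under the array medians of 4.60 and 4.55. RefSeq lists 6 pseudogenes with LDHA names and 4 with TPI1 names, so these values are uncertain by any signal from the copies, whose part was not tested.

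**Figure D2:**
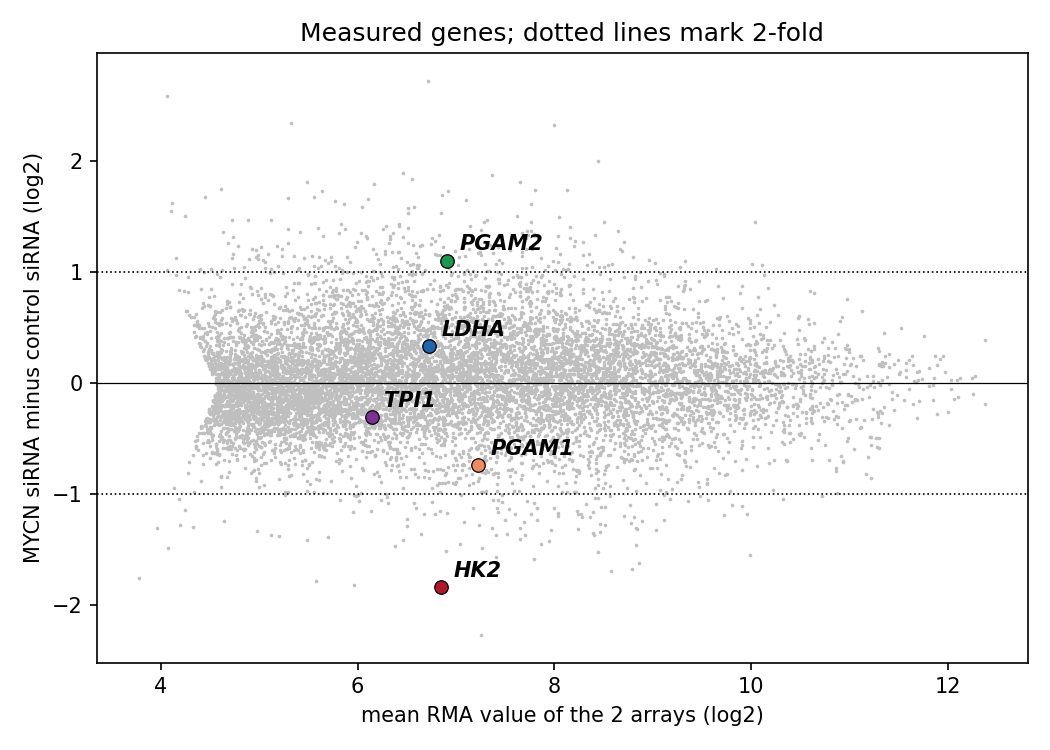
Difference between the MYCN siRNA and control siRNA arrays (log2, vertical axis) against the mean RMA value of the 2 arrays (log2, horizontal axis) for 10592 measured genes in grey, with the 4 members and PGAM2 in colour and dotted lines at 2-fold. HK2 at −1.84 lies below nearly all genes of its level, while TPI1 at −0.31 and LDHA at 0.33 lie inside the grey cloud.

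The order of differences places each member among genes it resembles only in that 1 number. Next to HK2 stood LGR5, an R-spondin receptor, at −2.27, then NT5DC3 at −1.82 and LIX1 at −1.78. Just below PGAM1 stood VDAC1, the outer mitochondrial membrane channel to which hexokinases dock, at −0.75 (10.4 in the control and 9.69 after MYCN siRNA), and WDR77, also at −0.75; just above it stood AGGF1 and LRTM2 at −0.74. TPI1 stood among GTPBP6, SDHAF3, PTBP3 and SPSB4, each at −0.31, and LDHA among CCDC71, THEMIS2, LEPROTL1 and ANKRD50, each at 0.33. With 2 arrays this closeness says nothing beyond the difference itself.

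The rest of the pathway was read from a list of 30 core enzymes, of which 16 had a named probe set and 11 were measured. Of the 11, 8 were lower and 3 higher, with a median difference of −0.20, beside 0.01 over all measured genes, of which 48.0% were lower. The 8 include the members HK2 and TPI1, the doubtful PGAM1 probe set, and PGAM4, whose sign turned with median centring. The 3 include the member LDHA. These counts therefore hold genes picked from this contrast. Without the 4 members the median of the other 7 was −0.06. GAPDH, which makes the first reducing equivalents of the pathway, read 8.46 in the control and 8.26 after MYCN siRNA (−0.20), and PGK1, the first ATP-yielding step, read 8.92 and 8.86 (−0.06). HK2, PGAM1 and PGAM2 were the core genes at least 1.5-fold apart between the arrays. The enolase and pyruvate kinase genes ENO1, ENO2, ENO3, PKM and PKLR had no named row and were not analysed here, and ENO4 was under the median in both arrays.

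**Figure D3:**
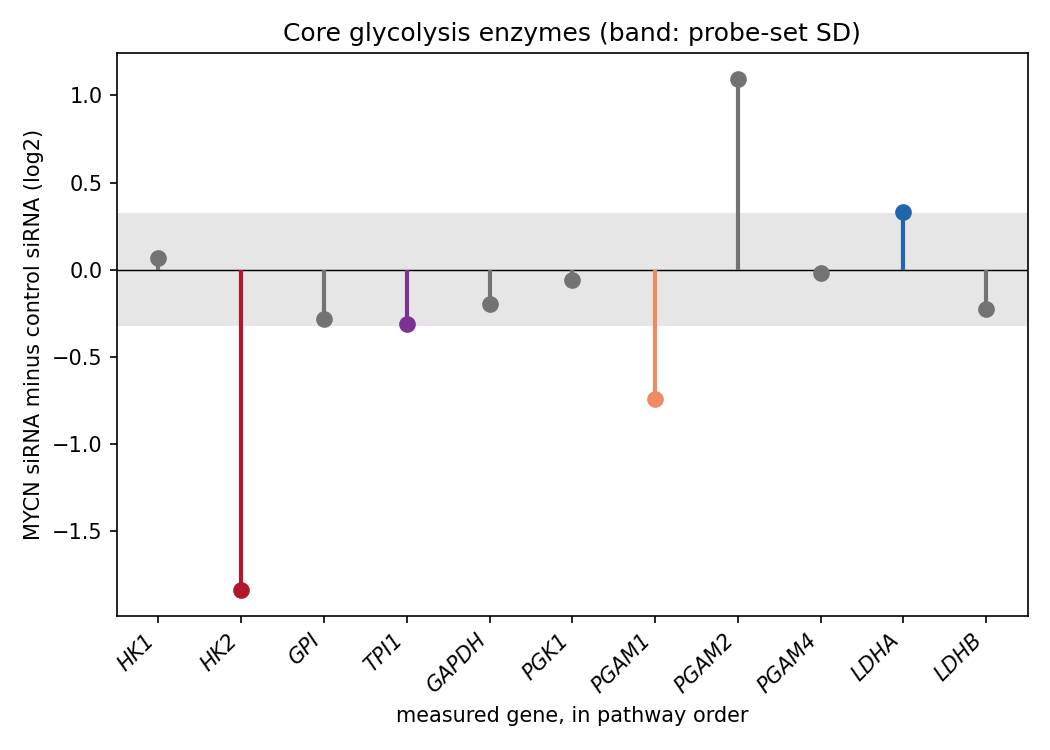
Difference between the MYCN siRNA and control siRNA arrays (log2, vertical axis) for the 11 measured core glycolysis genes in pathway order, 1 value per gene, with the 4 members in colour. The grey band spans the probe-set SD of 0.32 on either side of 0; HK2, PGAM1 and PGAM2 lie clearly outside it and LDHA at its edge.

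Uptake and exit of the sugar carbon were thinly covered. None of the 8 glucose transporters of the list had a named row, and they were not analysed here. BSG, basigin, the chaperone of the lactate transporters, read 11.0 in the control and 10.7 after MYCN siRNA (−0.31). Mitochondrial pyruvate entry had 8 measured genes, 4 lower and 4 higher (48.0% of all measured genes were lower), with a median of −0.02. They ran from MPC1, a subunit of the pyruvate carrier, at −0.30 and DLAT, the E2 subunit of pyruvate dehydrogenase, at −0.29 to DLD, the E3 subunit, at 0.30, and none was 1.5-fold apart. The signs of MPC2, PDHA1 and PDHB, all within 0.05 of 0, turned under other scalings. The 6 measured citric acid cycle genes ran from citrate synthase (CS) at −0.46 to OGDH at 0.22, with a median of 0.02.

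Branches that leave glycolysis held genes past 1.5-fold in both directions. HK2's product, glucose 6-phosphate, also feeds the pentose phosphate pathway. RPIA, ribose 5-phosphate isomerase of the non-oxidative arm, read 6.96 in the control and 6.19 after MYCN siRNA (1.71-fold lower), and H6PD, the glucose 6-phosphate dehydrogenase of the endoplasmic reticulum, read 5.42 and 6.17 (1.69-fold higher). The 8 measured genes of that pathway had a median of 0.03. Among 11 measured genes of glycogen and sugar nucleotides (median 0.11), PGM2L1, which makes glucose 1,6-bisphosphate, read 7.38 and 8.70 (2.49-fold higher), and UAP1, which makes UDP-N-acetylglucosamine, read 9.07 and 8.43 (1.56-fold lower). The 11 include UGP2 (4.85 and 4.49, control first), which was measured only through the control array, where it is higher.

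At the triose level, GPD2, the mitochondrial glycerol 3-phosphate dehydrogenase, read 7.54 in the control and 8.34 after MYCN siRNA (1.75-fold higher). PSAT1, the second enzyme of serine synthesis from 3-phosphoglycerate, read 11.3 and 10.5 (1.73-fold lower). PHGDH, the first enzyme of that branch, was at −0.26 and PSPH, the last, at 0.30. Both values are smaller in size than the probe-set SD, so no direction is read from either. TIGAR, a fructose bisphosphatase that slows glycolysis, was at 0.12, and PCK2, the mitochondrial enzyme that makes phosphoenolpyruvate, at 0.17.

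Regulators of glycolytic genes also went both ways. In the hypoxia-inducible factor system, EPAS1, which encodes HIF-2α, read 7.16 in the control and 8.10 after MYCN siRNA (1.93-fold higher). EGLN1, the prolyl hydroxylase that marks HIF for degradation, was at −0.30. The 4 measured genes had a median of 0.27. They include ARNT2 (4.34 and 4.57, control first), which was measured only through the MYCN siRNA array, where it is higher. HIF1A had no named row and was not analysed here. Of 13 measured HIF targets outside glycolysis 7 were lower and 6 higher, with a median of −0.13, where 48.0% of all measured genes were lower. Over all measured genes 5.79% were at least 1.5-fold lower and 8.81% at least 1.5-fold higher. ERO1A, which oxidises the disulfide isomerase of the secretory pathway, was 2.88-fold lower, STC2, a secreted glycoprotein, 1.93-fold lower and LOX, lysyl oxidase, 1.51-fold lower, whereas DDIT4, an mTORC1 inhibitor, was 1.77-fold higher, BNIP3L, a mitophagy receptor, 1.58-fold higher and INSIG2, a regulator of sterol synthesis, 1.53-fold higher. LOX dropped below 1.5-fold after median centring, quantile normalization, loess and with 16 added, and INSIG2 with 16 added.

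The glucose-sensing factors gave 3 lower and 2 higher genes, where 48.0% of all measured genes were lower. MLX, the shared partner of the carbohydrate response factors, read 10.7 in the control and 10.0 after MYCN siRNA (1.62-fold lower). MLXIPL, which encodes ChREBP, was at 5.01 and 4.42, near or under the median, and its 1.51-fold difference was past 1.5-fold only in the values as deposited and with the brightest probe set, which is the same row. TXNIP, a glucose-induced inhibitor of glucose uptake, read 7.55 and 8.55 with its brighter probe set (0.99) and 3.71 and 4.18 with its dim one (0.47), so its mean was 1.66-fold higher. With 16 added to the linear values the mean was just under 1.5-fold. ARRDC4, a relative of TXNIP, was at 0.20.

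**Figure D4:**
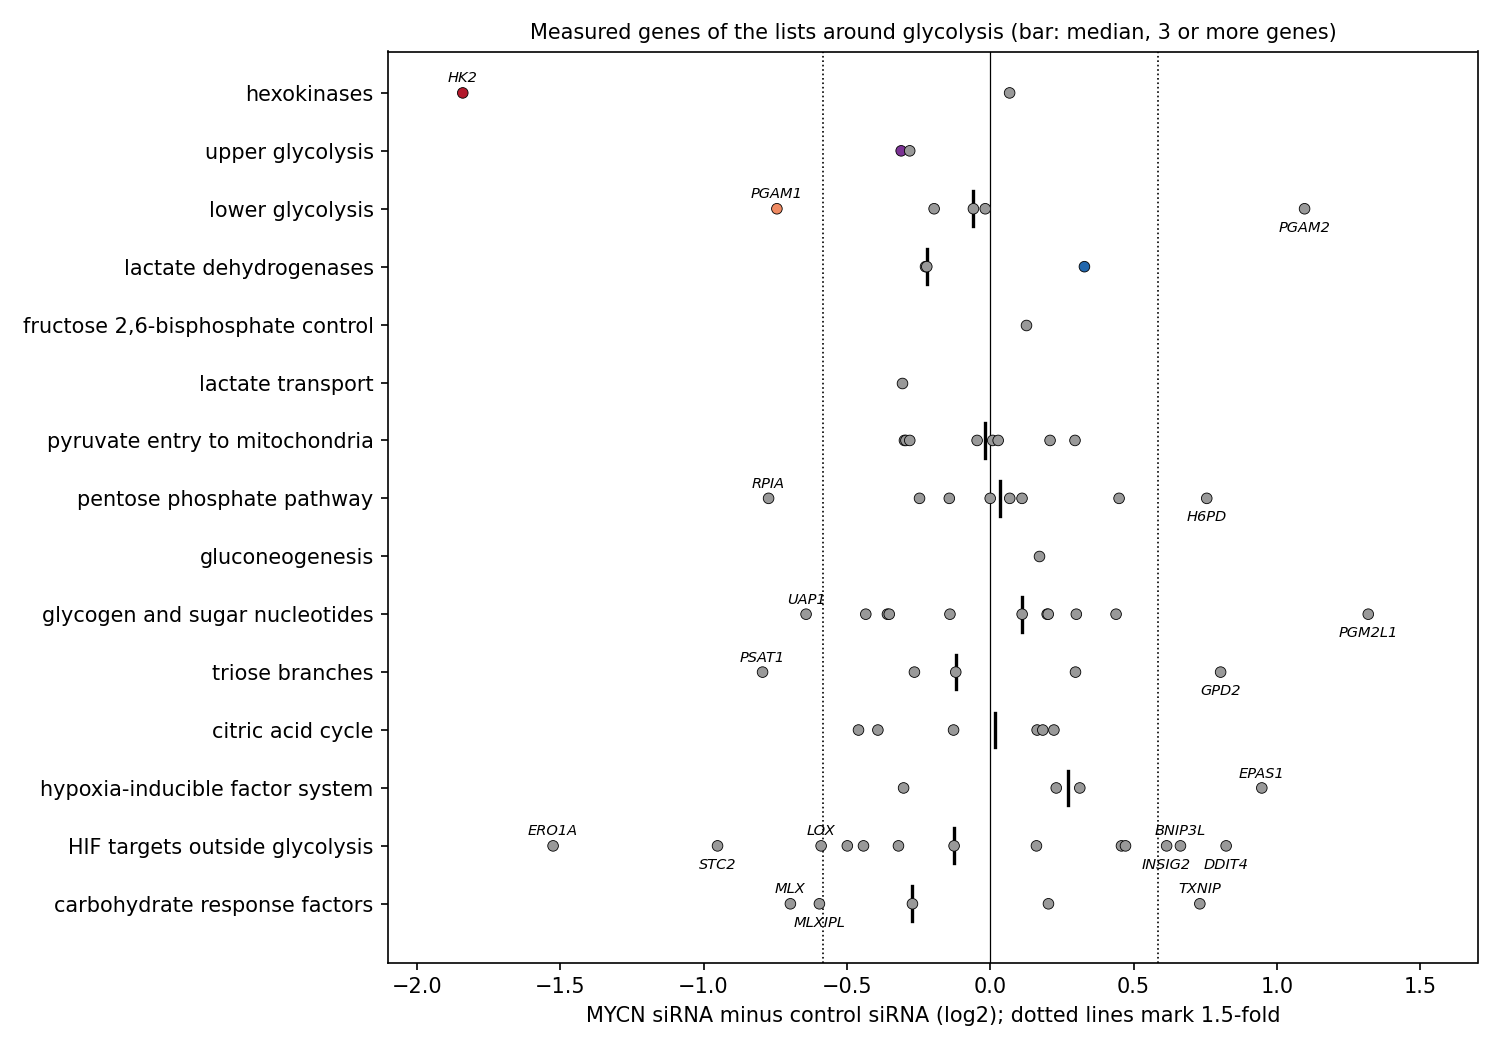
Difference between the MYCN siRNA and control siRNA arrays (log2, horizontal axis) for the measured genes of each list around glycolysis, 1 point per gene, with the members in colour, a bar at the median of lists with 3 or more genes and dotted lines at 1.5-fold. Genes past 1.5-fold are named; 10 lie on the lower side and 9 on the higher side of 75.

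Over all 17 lists together, 75 genes were measured, 10 of them at least 1.5-fold lower and 9 at least 1.5-fold higher, with a median of −0.05. The 10 include MLXIPL, which was measured only through the control array, where it is higher, and both MLXIPL and LOX were past 1.5-fold in 2 of the 6 settings tried. Across all measured genes 5.79% were that much lower and 8.81% that much higher. These lists were written with earlier results of these arrays known, and they include the members.

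The cells carried the transcripts that mark adrenergic neuroblastoma. All 10 marker genes with a named row were measured, from TH, tyrosine hydroxylase, at 6.47 in the control and 6.53 after MYCN siRNA to STMN2 at 11.7 in both, and DBH was the one past 1.5-fold (9.32 and 10.8). Of 12 markers of other cells only 4 had a named row, so other cell types were thinly checked. Among these, CD14 and EPCAM lay under the median in both arrays and VWF at 4.66 and 4.68 just above it. KRT18, an epithelial keratin with many pseudogenes, had a mean of 6.04 and 5.66. Its brighter probe set read 7.06 and 6.79 and its dim one 5.02 and 4.53 (control first). Over all probe sets the arrays correlated at Pearson's r = 0.986, a correlation across probe sets and not across samples.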

How the data were processed

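The authors deposited log2 values, 1 for each probe set in each of 2 arrays. They come from RMA, per the submitters' processing notes, whose settings, software and array set are not stated there. It has 46255 rows. The platform annotation named 1 gene for 15835 of them, none had several, and 30420 are unnamed here; all 15835 gene identifiers matched RefSeq's gene table (GRCh38.p14), which gave current symbols. Values of several probe sets of a gene were averaged (Python 3.11.15, pandas 2.3.3, numpy 2.4.6). Differences are MYCN siRNA minus control siRNA, and folds are powers of 2 of them. RMA makes the arrays' distributions alike, so a change in total messenger RNA does not show.

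With 1 array per group nothing was tested. The members and lists were chosen with earlier results of these data known. Named genes are the members, list genes at least 1.5-fold apart, the lowest and highest of each list, the nearest 2 protein-coding genes on each side of a member in the order of differences, and paralogs; other list genes were named after their values were seen, to fill in a pathway step. Promoter windows came from RefSeq. Alternatives were median centring, quantile normalization, loess (span 0.3, statsmodels 0.14.6), the brightest probe set, 16 added to linear values, no filter or one at the 70th percentile, and protein-coding genes only. The normalization steps were tested on simulated data, with shifts placed only in genes with 1 probe set. The averaging over several probe sets and the promoter, probe order and list steps were not tested.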

Additional observations from a re-analysis of the deposited data

How the results depend on the processing

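The 4 members kept their direction under the 5 alternatives each was given: HK2 ran from −1.87 to −1.61, PGAM1 from −0.80 to −0.67, TPI1 from −0.36 to −0.25 and LDHA from 0.27 to 0.38. Under all 5 alternatives HK2 stayed past 2-fold and the probe set named PGAM1, whose locus is in doubt, past 1.5-fold. HK2 was number 2 from the bottom after median centring, quantile normalization and loess, and number 4 with 16 added to the linear values. The median of the core glycolysis list lay between −0.21 and −0.15 under 7 alternatives. Not all of the 7 could move it. Each core gene has 1 probe set, and the filter at the 70th percentile kept 11 core genes, so these alternatives left it at −0.20. Counts over all measured genes moved more. With 16 added, which shrinks the differences of dim genes, the genes at least 2-fold higher went from 234 to 124, a change of over 1.5 times. Those at least 2-fold lower went from 123 to 87, those at least 1.5-fold lower from 613 to 417 and those at least 1.5-fold higher from 933 to 655. No other alternative moved a count by over 1.5 times. Every member has 1 probe set, so the choice among probe sets could not move it. Nor could adding 16 turn its sign, so only median centring, quantile normalization and loess could have turned a direction. No paired analysis was possible because each group has 1 array. Without replicates the direction of none of the 4 members is established for other cultures, and TPI1 and LDHA are also within about 1 probe-set SD of 0.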

Other observations

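The E-box seen before HK2 and LDHA can be followed over the measured protein-coding genes that have a promoter window. This count was chosen after the values were seen. Of 7679 measured protein-coding genes with a promoter window, 855 held CACGTG in the 250 bases before at least 1 listed start. Their median difference was −0.02, beside 0.03 for the 6824 genes without it. Of the genes with the E-box 8.42% were at least 1.5-fold lower and 6.08% at least 1.5-fold higher, and of those without it 5.47% and 9.19%. HK2 is one of the 72 E-box genes that were at least 1.5-fold lower, and LDHA, at 0.33, is in neither group. Genes with more listed starts had more windows in which to hold a match. Genes with and without the E-box were not matched for expression level or base content. Whether the motif has a part in the differences was not tested.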
